A study of Mus musculus with 4 samples.

Results

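The 52 genes described here encode the degradative lysosome of the mouse cell. They comprise 22 hydrolases, 4 luminal activators and binding proteins, 6 lysosomal membrane proteins, 2 sorting receptors, the 3 MiT transcription factors Tfeb, Tfe3 and Mitf, and 15 subunits and accessory proteins of the vacuolar proton pump (V-ATPase). They were taken by symbol from a table of 32230 genes, and all 52 were found. Every one of them passed the filter of a mean of 1 TPM, so 52 of the 14621 genes tested belong to this set.

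Polyadenylated RNA was measured in 4F2A mouse embryonic fibroblasts, which carry a doxycycline-inducible cassette of Oct4, Sox2, Klf4 and Myc and were taken from mid-gestation male homozygous embryos. All cells, controls included, received 2 µg/mL doxycycline for 48 h to start reprogramming, in medium with LIF and serum replacement, and RNA was taken on day 2. The DMSO group (2 libraries, replicates 2 and 3) was given the vehicle and the CX-5461 group (2 libraries, replicates 2 and 3) was given CX-5461, an inhibitor of RNA polymerase I, each for 1 h on day 0. The sources used here do not give the dose of CX-5461 or the number of embryos. The labels call the replicates parallel and do not name separate cultures. The p-values therefore weigh each difference only against the spread among these samples, and that spread may be technical.

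Lysosomes break down proteins, glycans, lipids and nucleic acids with acid hydrolases that reach them through the Golgi, many by way of the mannose phosphate receptors. The V-ATPase acidifies their lumen: its cytosolic V1 sector hydrolyses ATP, which drives proton transport through the membrane-embedded V0 sector. Many genes of this system share an E-box-like promoter motif, the CLEAR element, to which TFEB, TFE3 and MITF bind. The activity of these factors is set largely by phosphorylation and by transport into the nucleus, which mRNA levels do not show.

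Each library total in TPM was 1000000, and counted fragments recovered from the values numbered 17.5M to 18.6M per library. Mitochondrially encoded genes took 15.3% of TPM in DMSO replicate 3 and from 9.20% to 9.97% in the other 3 libraries. TPM is scaled per length, so levels of different genes can be set side by side. A difference is the CX-5461 value minus that of DMSO in log2(TPM + 1), given with the standard error (SE) from limma where it is printed. "Passed" means an adjusted p under 0.05 over all 14621 genes, and each gene was measured in 2 libraries per group.

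The mRNAs of these 52 genes were, as a group, higher after CX-5461. The genes were chosen with earlier results of these data known, so the comparison with all genes is descriptive. Of the 52 genes, 25 (48.1%) rose and 0 fell, while 27 did not pass, against a background of 11.6% of all genes tested that rose and 8.21% that fell, 19.8% in all. The genes that rose included the hydrolases Man2b1, Tpp1, Gla and Fuca1, 10 of 15 V-ATPase genes, the saposin precursor Psap and the membrane proteins Lamp1 and Lamp2. The median difference of the 52 genes was 0.39, with a range from -0.17 (Sort1) to 1.39 (Man2b1), and the median of all genes tested was 0.07. The difference was above 0 for 49 of the 52 genes and for 57.5% of all genes. Under the 3 other scalings tried, 46 or 47 of the 52 lay above 0. The median of all genes tested was then 0.001 to 0.018. Hexa, Grn, Glb1, Atp6v1e1 and Atp6v1h share from 32 to 255 exon bases with another gene of the table, so part of their reads is uncertain, as for the pairs named below. The same may hold for Arsb, Arsa, Galc, Sort1 and Atp6v0b, which share 243 to 1948 exon bases with genes absent from the table. In bulk RNA, fewer cells of a type and less RNA per cell cannot be told apart.

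The libraries themselves showed the same separation. Both CX-5461 libraries lay above both DMSO libraries for 40 of the 52 genes (76.9%), against a background of 38.2%. Both lay below for 2 of the 52, Sort1 and Arsb, against a background of 26.3%. The background genes were not matched to the 52 for expression level. The summed level of the 52 genes was 8763 and 8283 TPM in DMSO replicates 2 and 3, and 11473 and 11783 TPM in CX-5461 replicates 2 and 3. The sum was thus 1.36 times as high after CX-5461, and the gap between the groups was wider than the gap within either.

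**Figure D1:**
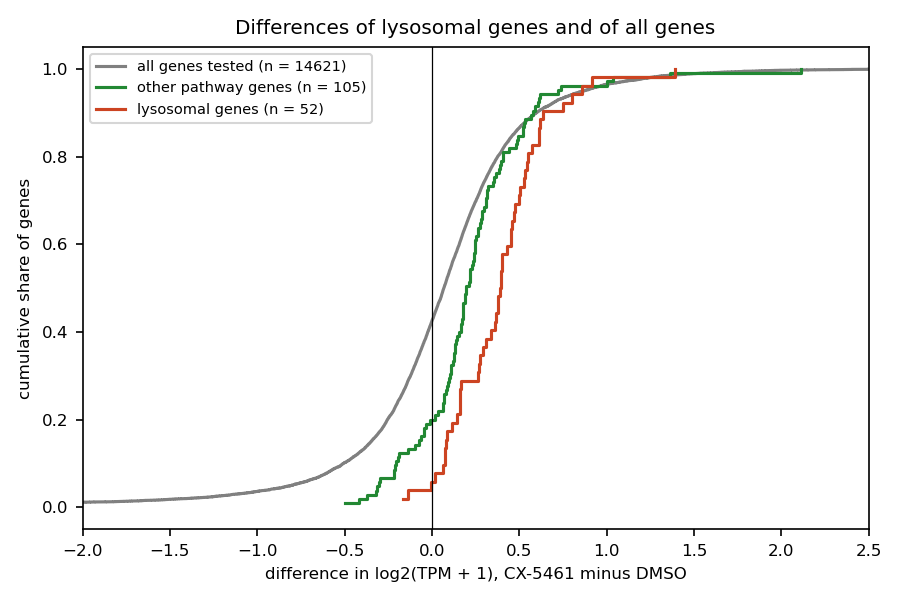
Cumulative share of genes (y axis) against the difference in log2(TPM + 1), CX-5461 minus DMSO (x axis), for the 52 lysosomal genes, 105 tested genes of related lists and all 14621 genes tested. The x axis was limited to -2 to 2.5. The curve of the 52 genes lies to the right of the others over most of the range, with a median of 0.39 against 0.20 for the related lists and 0.07 for all genes.

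These calls depended on having both CX-5461 libraries. Without CX-5461 replicate 2, Gla, Man2b1 and Tpp1 alone among the 25 passed (3 of 52, 5.77%, against a background of 2.15%). Without CX-5461 replicate 3, Man2b1 alone passed (1 of 52, 1.92%, against 1.62%), so the share was then close to the background. Without DMSO replicate 2, 27 genes passed (background 14%), and without DMSO replicate 3, 20 passed (background 6.48%). The median difference stayed between 0.35 and 0.44 in these 4 fits. Without limma's trend and robust options 14 of the 52 genes (26.9%) passed. The number of all genes called higher was then 1128 of 14621.

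**Figure D2:**
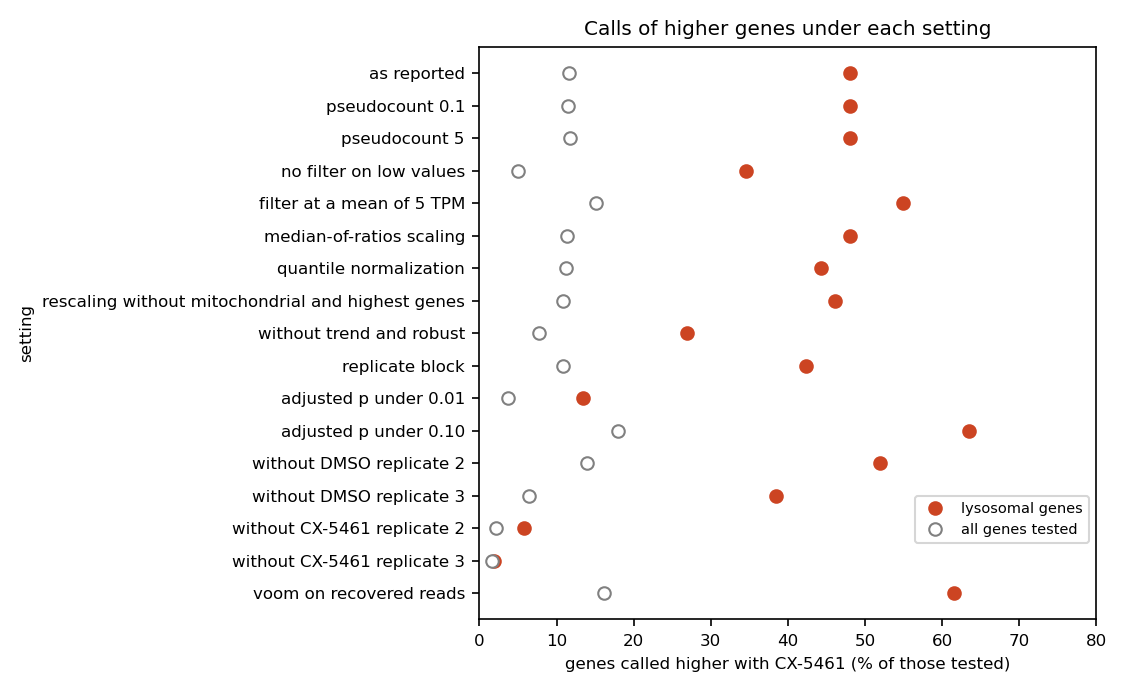
Percentage of genes called higher with CX-5461 (x axis) under each setting (y axis), for the lysosomal genes (filled points) and all genes tested (open points). The filled point lies at 48.1% as reported, at 5.77% and 1.92% when CX-5461 replicate 2 or 3 is left out, and to the right of the open point in every setting shown.

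None of the MiT factors passed. Tfeb, which drives transcription of lysosomal genes, stood at 6.52 and 4.71 TPM with DMSO and 5.79 and 6.07 TPM with CX-5461. Tfe3, a close relative, stood at 27.8 and 29.3 TPM with DMSO and 28.6 and 29.1 TPM with CX-5461. For both genes the groups overlapped. Their differences were 0.08 (95% interval -0.38 to 0.54, adjusted p = 0.786) for Tfeb and 0.02 (-0.21 to 0.24, adjusted p = 0.913) for Tfe3. Mitf, best known as the master regulator of melanocytes, was the lowest of the 52 genes at 3.50 and 3.29 TPM with DMSO and 4.75 and 4.85 TPM with CX-5461. The groups of Mitf did not overlap, and its difference of 0.40 (interval 0.00 to 0.80) missed the threshold (adjusted p = 0.137). Its lowest library held 111.5 recovered fragments, the fewest of any of the 52 genes.

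Promoters were searched for the motif these factors bind. RefSeq promoters of build GRCm38.p6, from 250 bases before to 50 bases after the start, were given for 44 of the 52 genes (53 promoters). The letters GTCACGTG, the core of the CLEAR element, were looked for on both strands, as was the E-box CACGTG, which every such core contains. The core stood in 9 of the 53 promoters (17.0%) and in 738 of 32851 promoters of all genes (2.25%). The E-box stood in 12 of the 53 (22.6%) and in 2349 of all (7.15%). A match describes letters and is not evidence of binding. These shares come from sequence alone and say nothing about CX-5461. Many genes of this system were already known to share the element.

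The 12 genes with an E-box were Lamp1, Gla, Mcoln1, Atp6v0d1, Atp6v0e, Atp6v1a, Gaa, Atp6v0b, Glb1, Naglu, Arsa and Sgsh. The first 7 of these rose and the last 5 did not pass. All 12 had both CX-5461 libraries above both DMSO libraries, where the background was 38.2%, and their median difference was 0.42. Of the 32 matched genes without an E-box, 14 rose, 23 had the CX-5461 libraries above, and the median difference was 0.37. The 9 genes with the full core had a median of 0.40, and 4 of them rose. Genes with and without an E-box had medians close to each other. The shares that rose were 58.3% and 43.8%, and the shares with both CX-5461 libraries above were 100% and 71.9%. The difference between these classes was not tested.

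Stretches upstream of the RefSeq start are shown for 6 of the 12 genes, to set promoters of genes that rose beside promoters of genes that did not pass. Capitals mark each E-box and, where present, the full core. Lamp1 (chr8:13159080-13159160, plus strand) holds 4 E-boxes, of which 1 lies in a core, and Gla (chrX:134601174-134601252, minus strand) holds 2, of which 1 lies in a core. Gaa (chr11:119267803-119267848, plus strand) and Atp6v1a (chr16:44139365-44139410, minus strand) hold 1 E-box each. Atp6v0b (chr4:117887330-117887387, minus strand) and Glb1 (chr9:114401008-114401055, plus strand) each hold the core and did not pass. All are written 5′ to 3′ on the strand of the gene.
Lamp1: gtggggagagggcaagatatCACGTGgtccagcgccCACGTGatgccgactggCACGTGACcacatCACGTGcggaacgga
Gla: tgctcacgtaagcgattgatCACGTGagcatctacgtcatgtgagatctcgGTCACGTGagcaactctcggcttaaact
Gaa: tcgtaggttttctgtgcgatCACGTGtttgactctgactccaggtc
Atp6v1a: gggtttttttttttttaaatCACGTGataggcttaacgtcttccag
Atp6v0b: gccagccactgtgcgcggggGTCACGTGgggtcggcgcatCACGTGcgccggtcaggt
Glb1: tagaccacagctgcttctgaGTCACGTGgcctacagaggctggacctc

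**Figure D3:**
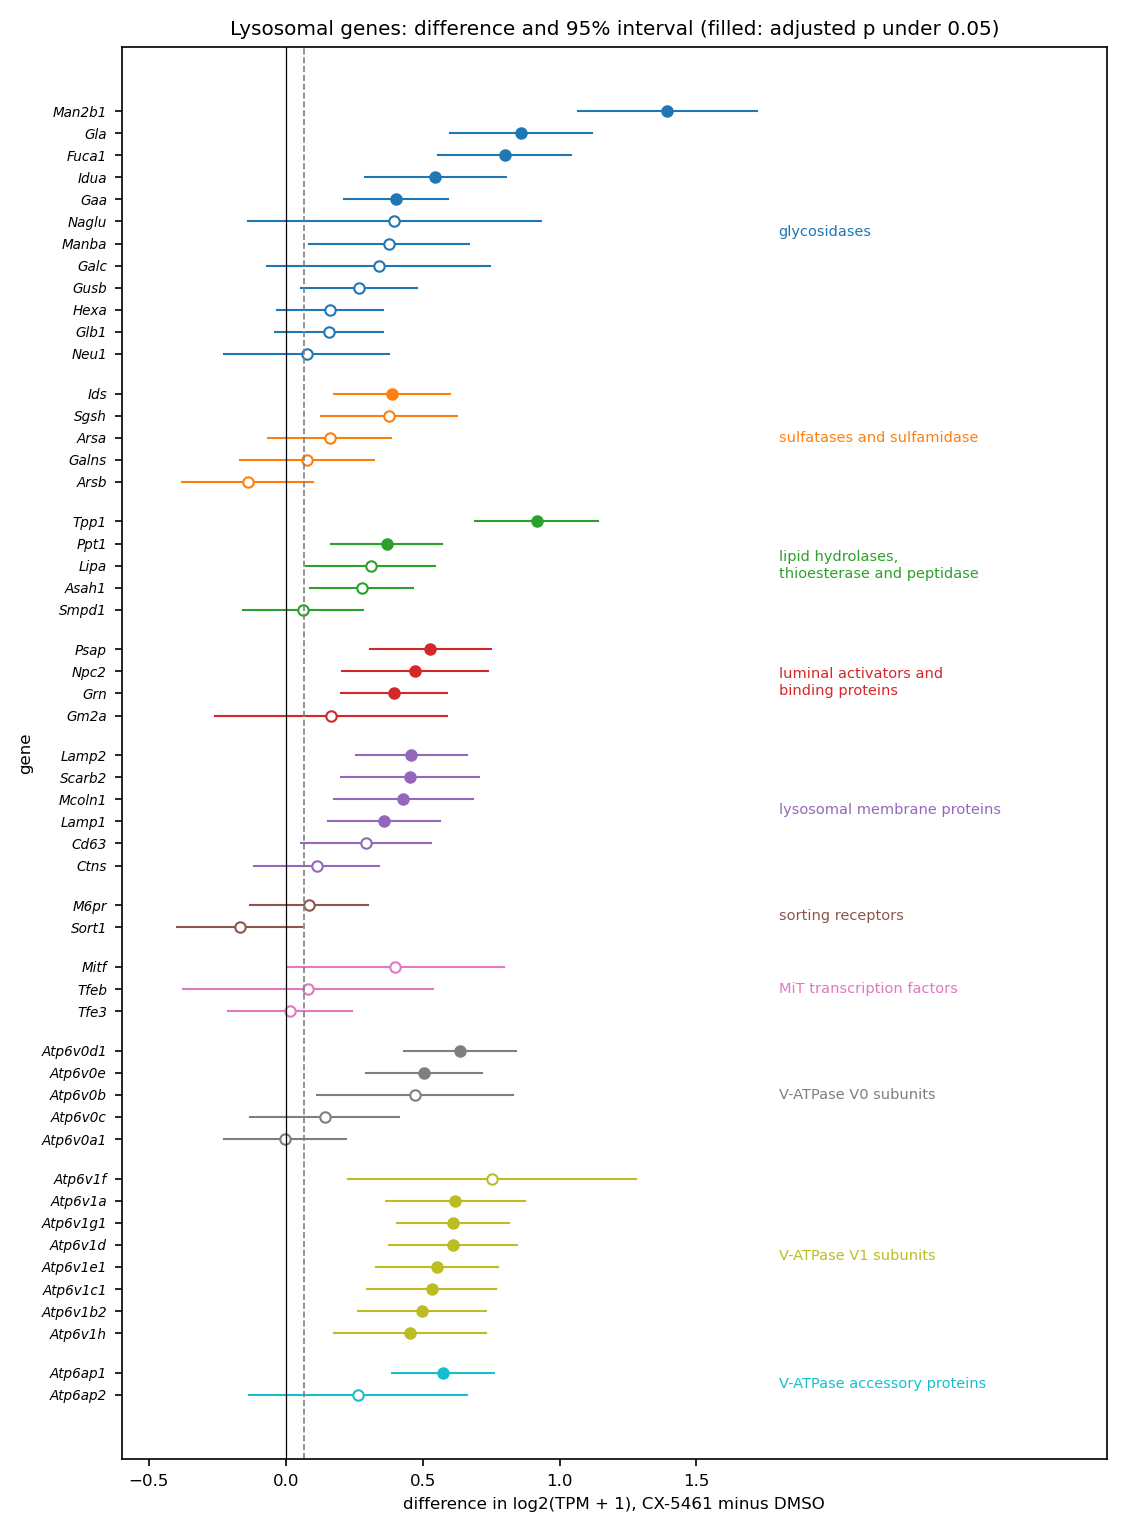
Difference in log2(TPM + 1), CX-5461 minus DMSO (x axis), for each of the 52 genes (y axis), grouped and coloured by class, with the 95% interval of the fit. Filled points passed at an adjusted p under 0.05, the solid line marks 0 and the dashed line the median of all genes tested. Man2b1 lies farthest to the right at 1.39, and the V1 subunits lie together between 0.45 and 0.75.

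Among the 12 glycosidases, which cleave sugars from glycans and glycolipids, 5 rose (41.7%, against a background of 11.6%) and 7 did not pass. Their median difference was 0.39. Man2b1 (chromosome 8, 85083270 to 85098282, mm10), the lysosomal alpha-mannosidase, stood at 71.6 and 63.0 TPM with DMSO and at 159.8 and 199 TPM with CX-5461. Both treated libraries were above 2 times the higher control, and the difference was 1.39 ± 0.13 (SE; adjusted p = 0.00247), from a mean of 67.3 ± 6.09 to 179 ± 27.5 TPM (SD, n = 2). Gla (chromosome X, 134588149 to 134601125), the alpha-galactosidase A whose loss causes Fabry disease, stood at 37.6 and 35.9 TPM with DMSO and at 62.6 and 72.6 TPM with CX-5461. The groups were well apart, with a difference of 0.86 ± 0.10 (adjusted p = 0.00511). Fuca1 (chromosome 4, 135920735 to 135940311), which removes fucose, stood at 91.6 and 79.4 TPM with DMSO and at 148 and 150.4 TPM with CX-5461. Its difference was 0.80 ± 0.10 (adjusted p = 0.00519), the third in size of the class.

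The other glycosidases moved less. Idua, which acts on heparan and dermatan sulfate, stood at 15.4 and 16.3 TPM with DMSO and 22.8 and 24.4 TPM with CX-5461 (difference 0.55, adjusted p = 0.0196). Gaa, the acid alpha-glucosidase that degrades glycogen and the most abundant glycosidase by the mean of the 4 libraries (with DMSO alone, Hexa was slightly higher), stood at 278 and 289 TPM with DMSO and 377 and 373 TPM with CX-5461 (difference 0.40, adjusted p = 0.020). In both genes the treated libraries were close to each other and above both controls. The 7 that did not pass were Manba, Gusb, Naglu, Galc, Hexa, Glb1 and Neu1, with differences from 0.08 (Neu1) to 0.40 (Naglu) and adjusted p from 0.0772 to 0.692. Glb1, the beta-galactosidase used in histochemistry as a marker of senescent cells, stood at 69.4 and 69.1 TPM with DMSO and at 77.2 and 77.6 TPM with CX-5461. Its groups did not overlap, and its difference of 0.16 (interval -0.04 to 0.36) missed the threshold (adjusted p = 0.214). Neu1, a sialidase, was the one glycosidase whose groups overlapped. Both CX-5461 libraries lay above both DMSO libraries for the other 11 (91.7% of the class, against a background of 38.2%).

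Of these 5 glycosidases, Gla did not pass without CX-5461 replicate 3 (adjusted p = 0.0648). Gaa, Idua and Fuca1 passed neither without CX-5461 replicate 2 nor without CX-5461 replicate 3: their adjusted p ran from 0.0668 to 0.184 without replicate 2 and from 0.0803 to 0.197 without replicate 3. Idua also missed the threshold without DMSO replicate 2 (0.0507) or DMSO replicate 3 (0.0540), and Gaa under quantile normalization (0.0561). Exons of Idua share 124 bases with Dgkq and 141 with Slc26a1 on the opposite strand, and the sources used here do not say whether reads were counted by strand, so reads of such pairs may not be told apart.

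The 4 sulfatases and the sulfamidase Sgsh, which strip sulfate from glycosaminoglycans and sulfolipids, showed the smallest median of the hydrolase classes, 0.16. Ids, the iduronate sulfatase and the most abundant of the class by the mean of the 4 libraries (with DMSO alone, Arsa was slightly higher), stood at 50.6 and 50.2 TPM with DMSO and 64.2 and 68.5 TPM with CX-5461, and was the 1 of 5 that rose (difference 0.39, adjusted p = 0.0300). It missed the threshold in each of the 4 fits without a library, with adjusted p from 0.0505 without DMSO replicate 2 to 0.238 without CX-5461 replicate 3. Sgsh, with a difference of 0.38, just missed the threshold (adjusted p = 0.0509), and shares 955 exon bases with Card14 on the opposite strand. Arsa and Galns had differences of 0.16 and 0.08. Arsb, which acts on dermatan sulfate, had a difference of -0.14 (interval -0.38 to 0.10, adjusted p = 0.358).

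Of the 5 lipid hydrolases, thioesterase and peptidase, 2 rose (40.0%, against a background of 11.6%). Tpp1 (chromosome 7, 105744811 to 105752235), the tripeptidyl peptidase of the lysosome, stood at 255 and 286 TPM with DMSO and 499 and 521 TPM with CX-5461. The groups were far apart, with a ratio of means of 1.89 and a difference of 0.92 ± 0.09 (adjusted p = 0.00279). Ppt1, which removes palmitate from proteins, stood at 77.2 and 78.8 TPM with DMSO and at 98.4 and 104 TPM with CX-5461 (difference 0.37, adjusted p = 0.0309). Lipa, the acid lipase, and Asah1, the acid ceramidase, had differences of 0.31 (adjusted p = 0.0742) and 0.28 (0.0550), with groups that did not overlap. Smpd1, the acid sphingomyelinase, had a difference of 0.06 and overlapping groups. Tpp1 missed the threshold without CX-5461 replicate 3 (0.0580). Ppt1 missed it without CX-5461 replicate 2 (0.165), CX-5461 replicate 3 (0.255) or DMSO replicate 3 (0.0556), and also under quantile normalization (0.0717) and rescaling (0.0557). Ppt1 shares 129 exon bases with Cap1 on the opposite strand, a gene at 457 to 509.9 TPM.

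Among the 4 luminal activators and binding proteins, 3 rose (75.0%, against a background of 11.6%). Psap (chromosome 10, 60277627 to 60302597), the precursor of the saposins that present lipids to hydrolases, stood at 1314 and 1204 TPM with DMSO and 1802 and 1824 TPM with CX-5461. It was the most abundant soluble protein gene of the set, and its difference was 0.53 ± 0.09 (adjusted p = 0.0136). Grn, the precursor of the granulins, stood at 370.2 and 376 TPM with DMSO and 478 and 505 TPM with CX-5461 (difference 0.40, adjusted p = 0.0224). Npc2, which binds cholesterol in the lumen, had a difference of 0.47 (adjusted p = 0.0330). Both CX-5461 libraries lay above both DMSO libraries for all 3 (75.0% of the class, against a background of 38.2%). The groups of Gm2a, the GM2 ganglioside activator, overlapped (difference 0.17, adjusted p = 0.529). None of the 3 passed without CX-5461 replicate 2 (adjusted p from 0.151 to 0.210) or CX-5461 replicate 3 (0.180 to 0.239).

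All 6 lysosomal membrane proteins had both CX-5461 libraries above both DMSO libraries, against a background of 38.2%. Of the 6, 4 rose (66.7%, against a background of 11.6%). Lamp1 (chromosome 8, 13159161 to 13175338), a heavily glycosylated protein of the limiting membrane, was the most abundant of the 52 genes at 1557 and 1555 TPM with DMSO and 1964 and 2030 TPM with CX-5461. Lamp2 (chromosome X, 38401357 to 38456454), which also serves chaperone-mediated autophagy, stood at 198 TPM in each DMSO library and at 263 and 283 TPM with CX-5461. In both genes the control libraries were nearly equal, and the differences were 0.36 ± 0.08 (adjusted p = 0.0338) for Lamp1 and 0.46 ± 0.08 (adjusted p = 0.0164) for Lamp2. Scarb2, the receptor that carries glucocerebrosidase to lysosomes, and Mcoln1, a cation channel that releases lysosomal calcium, also rose (differences 0.46 and 0.43, adjusted p = 0.0312 and 0.0376).

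The tetraspanin Cd63 had a difference of 0.29 (adjusted p = 0.0864), and the row of its pseudogene Cd63-ps, at 79.3 to 115.5 TPM, may share reads with it. Ctns, the cystine exporter, had a difference of 0.11 (adjusted p = 0.429). Lamp1 missed the threshold under each of the 3 other scalings, with adjusted p from 0.0566 to 0.101, and shares 249 exon bases with Grtp1 on the opposite strand. Grtp1 stood at 94.4 and 96.9 TPM with DMSO and 120.5 and 125 TPM with CX-5461. None of the 4 genes that rose passed without CX-5461 replicate 2 (0.114 to 0.240) or CX-5461 replicate 3 (0.170 to 0.319). Scarb2 also missed the threshold without DMSO replicate 3 (0.0575), and Mcoln1 without DMSO replicate 2 (0.0526) or DMSO replicate 3 (0.106).

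The 2 sorting receptors did not pass. M6pr, the cation-dependent mannose phosphate receptor, stood at 102 and 95.3 TPM with DMSO and 108 and 101 TPM with CX-5461, with overlapping groups. Sort1, which sorts prosaposin and progranulin among other ligands, had the lowest difference of the set, -0.17 (interval -0.40 to 0.06, adjusted p = 0.253). The CX-5461 libraries of Sort1, at 24.6 and 23.7 TPM, lay below the DMSO libraries, at 27.6 and 26.9 TPM.

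**Figure D4:**
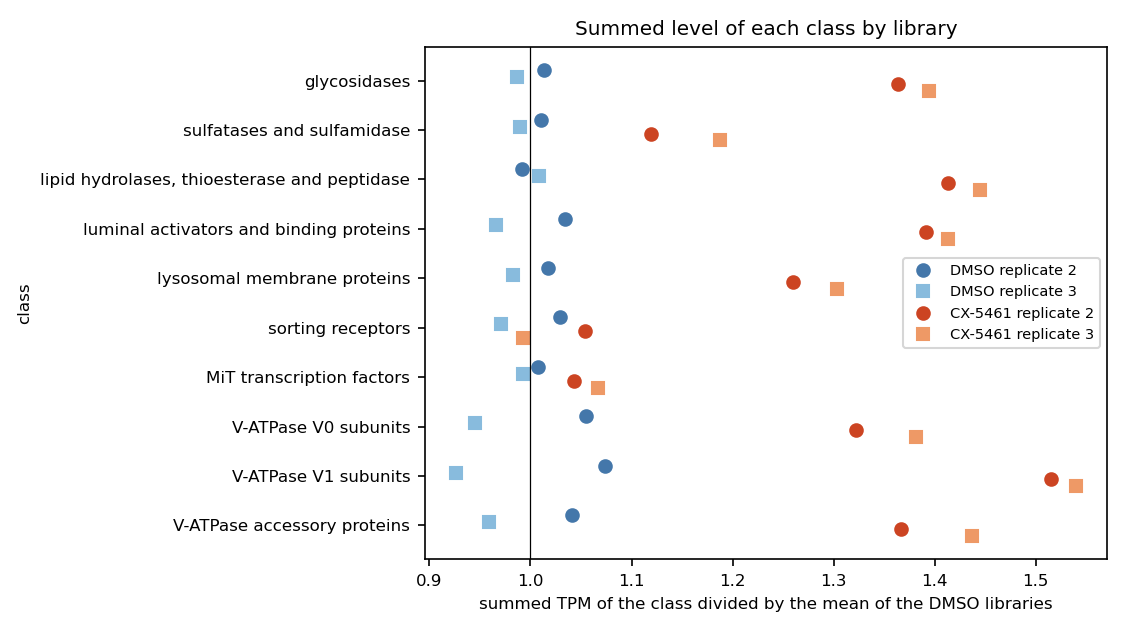
Summed TPM of each of the 10 classes (y axis) in each library, divided by the mean of the 2 DMSO libraries (x axis, which starts near 0.9). Both CX-5461 points lie to the right of both DMSO points for every class except the sorting receptors, and farthest for the V1 subunits, whose summed level was 1.53 times as high.

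The V-ATPase held the largest number of genes that rose: 10 of 15 (66.7%, against a background of 11.6%), with a median difference of 0.53. The V1 sector moved most evenly. Both CX-5461 libraries lay above both DMSO libraries for all 8 of its subunit genes, against a background of 38.2%. These 8 genes had differences from 0.45 to 0.75, and 7 of them passed (87.5%). Their summed level was 905 and 780.4 TPM with DMSO and 1277 and 1298 TPM with CX-5461. The 5 genes of V0 were less even: 2 rose (40.0%) and 3 did not pass. Their summed level was 732 and 656 TPM with DMSO and 918 and 959 TPM with CX-5461. The difference between V1 and V0 was not tested.

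**Figure D5:**
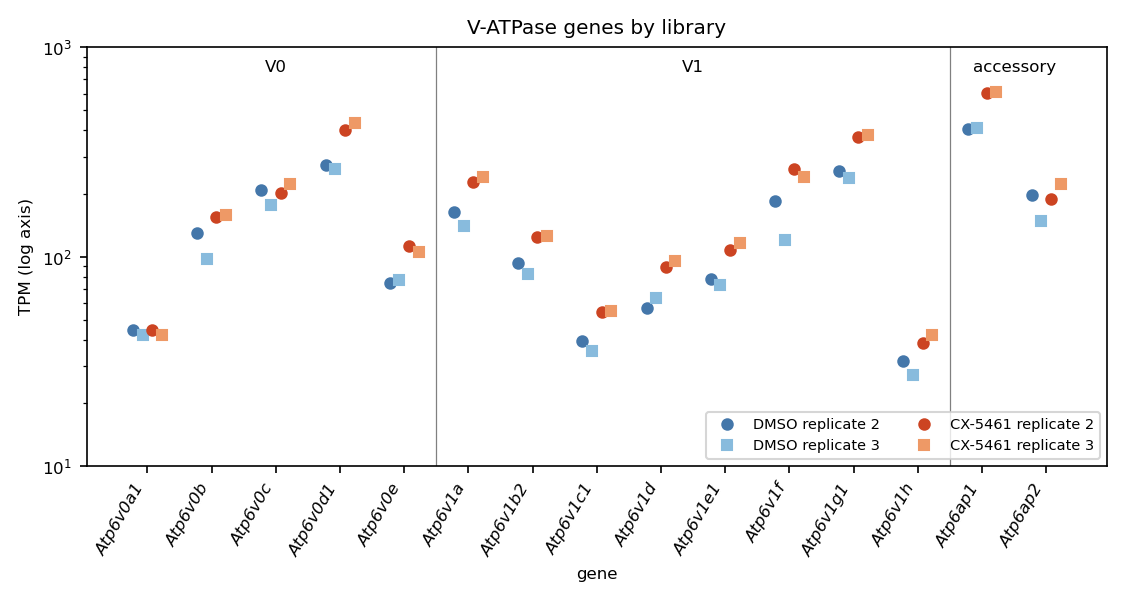
TPM (y axis, log scale) of the 15 V-ATPase genes (x axis) in each of the 4 libraries, with V0, V1 and accessory genes set apart by vertical lines. The CX-5461 libraries lie above both DMSO libraries for 12 genes and overlap them for Atp6v0a1, Atp6v0c and Atp6ap2.

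In V1, the catalytic core is built from the A and B subunits. Atp6v1a (chromosome 16, 44085402 to 44139705), the A subunit that hydrolyses ATP, stood at 164 and 141 TPM with DMSO and 226 and 241 TPM with CX-5461 (difference 0.62, adjusted p = 0.0130). Atp6v1b2, the widely expressed B subunit, stood at 93.8 and 82.7 TPM with DMSO and 124 and 126 TPM with CX-5461 (difference 0.50, adjusted p = 0.0196). In both, DMSO replicate 3 was the lowest library and the groups were apart. Atp6v1d, of the central rotor stalk, stood at 57.1 and 63.4 TPM with DMSO and 89.5 and 95.4 TPM with CX-5461 (difference 0.61, adjusted p = 0.0103). Atp6v1f, also of the rotor stalk, stood at 183 and 120.2 TPM with DMSO and 262 and 239.9 TPM with CX-5461. It had the largest difference of the sector, 0.75 ± 0.21, and missed the threshold (adjusted p = 0.0626), with DMSO libraries far from each other. It passed under each of the 3 other scalings, with adjusted p from 0.0362 to 0.0447.

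The peripheral stalks of V1, which hold the core still while the rotor turns, are made of the E and G subunits with C. Atp6v1g1 (chromosome 4, 63544772 to 63550750) was the most abundant V1 gene at 257 and 237 TPM with DMSO and 374 and 382 TPM with CX-5461 (difference 0.61 ± 0.08, adjusted p = 0.00676). Atp6v1e1 stood at 78.7 and 73.2 TPM with DMSO and 107 and 116 TPM with CX-5461 (difference 0.55, adjusted p = 0.0125). Atp6v1c1, which joins V1 to V0 and leaves when the pump disassembles, stood at 39.8 and 35.6 TPM with DMSO and 54.5 and 55.3 TPM with CX-5461 (difference 0.53, adjusted p = 0.0166). All 3 had treated libraries close to each other and above both controls. Atp6v1h, the regulatory subunit, also rose (difference 0.45, adjusted p = 0.0414). None of the 7 V1 genes that rose passed without CX-5461 replicate 2 (adjusted p from 0.0833 to 0.154) or CX-5461 replicate 3 (0.114 to 0.261), and Atp6v1h did not pass without DMSO replicate 3 (0.108).

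In V0, Atp6v0d1 (chromosome 8, 105524465 to 105566047), the subunit that links the rotor to the proton-carrying ring, stood at 275 and 262 TPM with DMSO and 404 and 432 TPM with CX-5461. Its groups were far apart (difference 0.64 ± 0.08, adjusted p = 0.00604). Atp6v0e, a small membrane subunit, stood at 75.2 and 77.8 TPM with DMSO and 113 and 105 TPM with CX-5461 (difference 0.50, adjusted p = 0.0140). The ring subunits Atp6v0b and Atp6v0c had differences of 0.47 (adjusted p = 0.0737) and 0.14 (adjusted p = 0.401), and the groups of Atp6v0c overlapped. Atp6v0a1, an isoform of the subunit that forms the proton channel with the ring, stood at 44.9 and 42.5 TPM with DMSO and 44.9 and 42.2 TPM with CX-5461 (interval of the difference -0.23 to 0.22, adjusted p = 0.978). Atp6v0d1 and Atp6v0e did not pass without CX-5461 replicate 2 (0.0739 and 0.142) or CX-5461 replicate 3 (0.110 and 0.115).

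Of the accessory proteins, Atp6ap1 (chromosome X, 74297097 to 74304721), which takes part in V0 assembly and was the most abundant V-ATPase gene, stood at 408 and 409 TPM with DMSO and 604 and 612 TPM with CX-5461. The libraries of each group were nearly equal, and the difference was 0.57 ± 0.07 (adjusted p = 0.00612). It missed the threshold without CX-5461 replicate 2 (0.0942) or CX-5461 replicate 3 (0.118). Atp6ap2, also known as the prorenin receptor, stood at 196 and 147 TPM with DMSO and 189 and 221 TPM with CX-5461, so its groups overlapped (difference 0.26, adjusted p = 0.292).

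Other genes of the lysosomal pathway were read from 5 lists of related genes, 114 in all, of which 105 were tested. Of these, 18 rose (17.1%, against the background of 11.6%) and 2 fell, with a median difference of 0.20. Both CX-5461 libraries lay above both DMSO libraries for 65 of the 105 (61.9%, against a background of 38.2%). The list of other hydrolases and related enzymes had the most calls, with 7 of 26 higher (26.9%) and 1 lower (median 0.23). Hyal1, the lysosomal hyaluronidase, stood at 19.0 and 17.7 TPM with DMSO and 81.4 and 83.7 TPM with CX-5461 (difference 2.11, adjusted p = 0.000307), larger than any of the 52 genes, and passed in every fit without a library. Neu3, a sialidase found chiefly at the plasma membrane, and Aga, which cleaves the sugar to asparagine bond, also rose (differences 1.36 and 1.03, adjusted p = 0.00478 and 0.00255). Neu3 missed the threshold without CX-5461 replicate 2 (0.0541), and Aga passed in every fit without a library. Tpcn1, an endolysosomal cation channel placed in this list, fell from a mean of 67.4 to 47.5 TPM (difference -0.50, adjusted p = 0.0129).

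Of 24 other membrane proteins tested 4 rose (16.7%, against the background of 11.6%) and 0 fell (median 0.29), among them Clcn7, the chloride and proton exchanger of lysosomes (difference 0.52), Lmbrd1, needed for cobalamin export (0.61), and Laptm4b (0.49). Of 13 other V-ATPase subunits and assembly factors tested, 3 rose (23.1%) and 0 fell (median 0.16): Tcirg1, the a3 subunit (0.53), Tmem199, an assembly factor (0.52), and Rnasek (0.58). Rnasek missed the threshold under quantile normalization (adjusted p = 0.0679). Of 17 sorting genes 2 rose, a share of 11.8% that is near the background, and 1 fell. Those that rose were Snx2 of the retromer-linked sorting nexins (0.41) and the receptor Sorl1 (1.00). The gene that fell was Gnptab, a subunit of the enzyme that makes the mannose phosphate tag (difference -0.42, adjusted p = 0.0406). Of 25 regulators of MiT factors tested, 2 rose and 0 fell (median 0.20), a share of 8.0% that is below the background of genes that rose. These were Flcn, which with its partners promotes Rag-dependent retention of TFEB in the cytoplasm (difference 0.53, adjusted p = 0.0159), and the Rag GTPase Rraga (difference 0.41, adjusted p = 0.0196). The third by adjusted p, Tsc2, which restrains mTORC1, did not pass (difference 0.35, adjusted p = 0.0620). Both CX-5461 libraries lay above both DMSO libraries for 17 of the 25 regulators (68.0%) and 9 of the 17 sorting genes (52.9%). The background for this was 38.2%. None of the genes named here from these 4 lists passed without CX-5461 replicate 2 or CX-5461 replicate 3, with adjusted p from 0.0833 to 0.239 for those that had passed, and Tpcn1 did not either (0.125). Lmbrd1, Laptm4b, Tcirg1, Tmem199, Snx2, Sorl1 and Gnptab also missed the threshold without DMSO replicate 3 (0.0542 to 0.115).

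Markers of cell types and of cycling moved in the same libraries. The background for these lists was 11.6% of all genes tested that rose and 8.21% that fell. The fibroblast list was present, and 6 of its 12 genes fell and 0 rose; without CX-5461 replicate 2, Pdgfra and Lum alone passed, and without CX-5461 replicate 3, Lum alone. Its summed level was 11642 to 14131 TPM with DMSO and 9940.2 to 10288 TPM with CX-5461. All 10 markers of cycling cells fell (median difference -3.88) and passed in each fit without a library, with sums of 577 to 614 TPM with DMSO and 26.2 to 29.1 TPM with CX-5461. The macrophage list, a cell type rich in lysosomes, had 2 of 10 tested genes higher, Lyz2 (528 and 508 TPM with DMSO, 775 and 855 TPM with CX-5461) and Adgre1, and 0 lower. Lyz2 and Adgre1 missed the threshold without CX-5461 replicate 2 (adjusted p = 0.0698 and 0.105) or CX-5461 replicate 3 (0.118 and 0.0803). The sum of the list was 648 to 679 TPM with DMSO and 933 to 1048 TPM with CX-5461, and without Lyz2 the other tested macrophage markers lay at or under 48.3 TPM in every library. Of the 10 tested macrophage genes, 9 had a difference above 0, where the background was 57.5%, and their list had a median of 0.27. Mrc1 was the 1 below 0 (-0.32). Both CX-5461 libraries lay above both DMSO libraries for 4 of the 10, where the background was 38.2%. These were Lyz2, Adgre1, Laptm5 (difference 0.33) and Itgam (0.32), of which Laptm5 and Itgam did not pass. The groups of the other tested genes, C1qa and C1qb among them, overlapped. The defining leukocyte gene Ptprc stood at 0.656 to 1.27 TPM and Csf1r at 9.43 to 13.1 TPM, with overlapping groups in both. The osteoclast marker Dcstamp and the melanocyte marker Tyr were listed at 0 in every library. The 2 osteoclast genes tested, Acp5 and Nfatc1, had both CX-5461 libraries above both DMSO libraries and did not pass (differences 0.62 and 0.39), and the osteoclast sum was 13.4 to 16.2 TPM with DMSO and 20.4 to 21.6 TPM with CX-5461. Of the 2 melanocyte genes tested, Pmel rose (difference 0.87, adjusted p = 0.0459; 0.0556 to 0.256 in the 4 fits without a library) and Sox10, at 30.2 to 39.7 TPM, did not pass. The melanocyte sum was 34.3 to 34.4 TPM with DMSO and 35.6 to 46.5 TPM with CX-5461. Of the 2 endothelial genes tested Kdr rose (difference 1.78) and Tek fell (-0.39, lost in every fit without a library), and 0 of 3 keratinocyte genes passed. The part of these cell types and of cycling in the differences of the lysosomal genes was not tested.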

How the data were processed

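The authors deposited TPM values (reads per gene divided by gene length and scaled to a fixed library total) for 4 libraries. Per the labels' protocols, reads were 150 bases, paired, and cleaned on the BMKCloud platform. Build mm10 is from the submitters' processing notes. The sources used here do not give the aligner, annotation or strand setting. Scaling to a total makes each value relative to the rest of its library.

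Genes whose mean over the 4 libraries reached 1 TPM were compared by limma 3.58.1 (R 4.3.3) on the log2(TPM + 1) scale (eBayes with trend and robust, no covariate, 2 residual and 3.75 prior degrees of freedom). The Benjamini-Hochberg adjustment of p ran over all 14621 genes. This scale understates the change of low genes. With 2 libraries in each group the smallest two-sided p of an exact permutation test is 0.333, so none was used. The procedure was tested on simulated data.

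The 52 genes, their classes, the related lists and the markers were chosen with earlier results of these data known. Values in every library are given for up to 20 genes that passed with the smallest adjusted p, the MiT factors and the most abundant gene of each class. Up to 3 genes with the smallest adjusted p are named from each related list. Glb1, Sort1, Atp6v1f, Atp6v0a1, Atp6ap2, Tpcn1 and the cell type markers named were chosen after their values were seen.

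Symbols were matched to GENCODE M21 (mm10) for coordinates and exon lengths. Low TPM values fell on steps set by exon length. The most common step was taken as 1 counted fragment, and whether that is a read or a pair is not known. Counted in units of 0.5 steps, 69.7% of 70108 values lay within 0.01 units of a whole number, against 2% by chance. The limma voom method was run on these numbers after the data were seen. This step used pandas 2.3.3 and numpy 2.4.6 under Python 3.11.15, with matplotlib 3.10.9 for the plots.

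Alternatives were a replicate block, each library left out, thresholds of 0.01 and 0.10, limma without its trend and robust options, pseudocounts of 0.1 and 5, a filter of 5 TPM or none, and 3 scalings: median-of-ratios, quantile normalization, and rescaling that leaves out the 20 highest genes and those encoded in mitochondria.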

Additional observations from a re-analysis of the deposited data

How the results depend on the processing

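The number of the 52 genes called higher was 25, and 0 were called lower in every setting. It was 14 without trend and robust, 7 at a threshold of 0.01 and 1 to 27 with 1 library left out, and 18 to 33 in all other settings. Of the 25 genes, 14 passed in all 10 fits that kept the 4 libraries and the threshold. The same count was not made for all genes. No difference that had passed changed sign in any setting. The median difference of the 52 genes, 0.39, was 0.33 with median-of-ratios scaling, 0.31 with quantile normalization, 0.32 with rescaling and 0.34 with voom. It was 0.35 to 0.44 with 1 library left out. The median of all genes tested, 0.068, was 0.007 with median-of-ratios scaling, 0.018 with quantile normalization, 0.001 with rescaling and 0.019 with voom. That median was 0.016 to 0.108 with 1 library left out. The number of all genes called higher, 1694, was 1051 without a filter, 1128 without trend and robust, 548 and 2623 at thresholds of 0.01 and 0.10, and 237 to 2047 with 1 library left out. The number called lower, 1201, was 518 at 0.01, 2181 with voom and 364 to 891 with 1 library left out. With 1 library left out, the lone library of its group was assumed to vary like the other pair. Why the counts moved was not tested. With a replicate block, 22 of the 52 genes (42.3%) were called higher, 21 of them among the 25. In that fit 1589 of all 14621 genes were called higher. Ids, Ppt1, Lamp1 and Atp6v1h were lost and Atp6v1f was gained. Same-numbered libraries did not deviate together (r = 0.031 across 14621 genes, which are not independent replicates), so the numbers are not shown to pair the samples. Depth is lowest for Mitf, with 111.5 recovered fragments in its lowest library.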
